A study of Mus musculus with 30 samples.

Results

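The 10 genes described here encode the CREB-type transcription factors Creb1, Atf1 and Crem, the acetyltransferase coactivators Crebbp and Ep300, the CREB-regulated coactivators Crtc2 and Crtc3, and the protein kinase A (PKA) subunits Prkaca, Prkar1a and Prkar2b. They were taken by symbol from a count table of 54232 genes, and all 10 were among the 20139 genes with enough counts to be tested. RNA was sequenced from 30 libraries of 3T3-L1 cells, a clonal mouse preadipocyte line, in 6 groups of 5 libraries. Besides control, cells received pNaKtide (0.7 µM), indoxyl sulfate (IS, 100 µM) or oxidized low density lipoprotein (oxLDL, 50 µg/mL), and the last 2 groups combined IS or oxLDL with pNaKtide. IS is a uremic toxin, oxLDL served as an oxidant stress, and pNaKtide is a cell-permeant peptide that blocks signaling of the Na,K-ATPase through Src. Every group, control included, was grown for 5 days in adipogenic medium with insulin, dexamethasone, indomethacin (0.1 mM) and isobutylmethylxanthine (IBMX, 0.5 mM). IBMX inhibits the phosphodiesterases that break down cyclic AMP, so an agent of the cAMP pathway was shared by all groups. The labels give 5 days of treatment, and the study's methods give a shorter exposure. The labels do not say that the 5 libraries of a group came from separate cultures, so the p-values measure only the spread between these libraries, which may be technical. Of 60 pairs of libraries within a group, 5 had a chi-square per degree of freedom under 2 (lowest 1.28), where the median pair had 10.3, so that some libraries of a group were far closer to each other than others.

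PKA is an enzyme of catalytic subunits, mainly from Prkaca, held inactive by a dimer of regulatory subunits until cAMP binds to the latter. Freed catalytic subunits phosphorylate lipolytic proteins of the fat droplet and, in the nucleus, a serine of CREB (Creb1) and its relatives ATF1 and CREM, which bind the cAMP response element (CRE). Phosphorylated CREB recruits the acetyltransferases CBP (Crebbp) and p300 (Ep300), while CRTC proteins move to the nucleus when dephosphorylated and bind its DNA-binding region. In preadipocytes CREB is known for its part in starting adipogenesis, and RIIβ (Prkar2b) is the regulatory subunit typical of adipose tissue.

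The site that PKA reads in these proteins shows how members are related, and the coding sequence around it is printed for 4 of them. CREM carries such a site too and is not shown. The capitals mark the codon of the phosphorylated serine in Creb1, Atf1 and Prkar2b, and in Prkar1a the alanine that stands in its place, which makes RIα a pseudosubstrate. Sequences are from GENCODE transcripts on GRCm38, run 5′ to 3′ on the coding strand, and are spliced where a pair of exons is named.
Creb1, codon 133 of 341, chr1:64566298-64570134, plus strand, exons 5 and 6: tcaaggaggcctTCCtacagg
Atf1, codon 63 of 269, chr15:100245326-100252069, plus strand, exons 3 and 4: gcccggcgcccaTCCtacagg
Prkar2b, codon 112 of 416, chr12:31993779-32038637, minus strand, exons 2 and 3: acaaggcgtgccTCGgtctgt
Prkar1a, codon 99 of 381, chr11:109660104-109660124, plus strand, exon 3: cggcgccgaggtGCTatcagt

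Depth ran from 6945498 to 15159877 counted reads per library, with a median of 11524210. All 13 adipocyte markers were counted, though Lep had 76 counts in total and at most 7 in a library. They summed to 15110 to 21050 CPM, counts scaled to a common library size, over the libraries. The 10 preadipocyte and fibroblast markers summed to 4586 to 7552 CPM. The labels speak of adipose tissue at RNA extraction, but Ptprc and Itgam of leukocytes and Tie1 and Cldn5 of endothelium had 0 counts. Other genes of these lists were counted: over all libraries Cd14 had 1647 counts, Cd68 1569, Lyz2 518 and Pecam1 79. The 8 macrophage and leukocyte markers summed to at most 13.9 CPM and the 8 endothelial markers to at most 0.924 CPM in any library. On the first principal component, with 59.1% of the variance, control replicate 1 lay at -27.3 against 7.37 to 31.7 for the other controls. IS replicate 4 lay at 29.6 against -38.9 to -24.5 for the other IS libraries, and oxLDL + pNaKtide replicate 4 at 71.0 against 15.0 to 35.0. Counts of called members are given with and without control replicate 1 and IS replicate 4 where leaving them out changed the count. In bulk RNA, fewer cells of a type and less RNA per cell cannot be told apart.

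Levels of different genes were compared per length, as FPKM, fragment counts scaled for gene length and depth. In control cells Prkaca was the most abundant member at 99.4 ± 6.13 FPKM (SD, n = 5), ahead of Prkar1a at 44.9 ± 1.76 and Prkar2b at 32.7 ± 5.83 FPKM. These PKA subunits did not overlap with the other members in FPKM. Crtc2 (7.56 ± 0.323 FPKM) and Atf1 (7.38 ± 1.60) were neighbours that differed by less than their spread, and Ep300 followed at 4.79 ± 1.04 FPKM. Crebbp (2.19 ± 0.964 FPKM) and Crtc3 (1.98 ± 0.187) were again within their spread. Creb1 had 1.12 ± 0.342 FPKM, so that Atf1 RNA outnumbered that of Creb1 per length, and Crem was lowest at 0.463 ± 0.112 FPKM with 11 to 68 counts per library. Over the 30 libraries the range of a member, here as highest over lowest CPM, was narrowest for Prkar1a (1.19-fold), Crtc2 (1.29-fold) and Prkaca (1.36-fold). It was widest for Crebbp (3.80-fold) and Creb1 (3.65-fold).

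**Figure D1:**
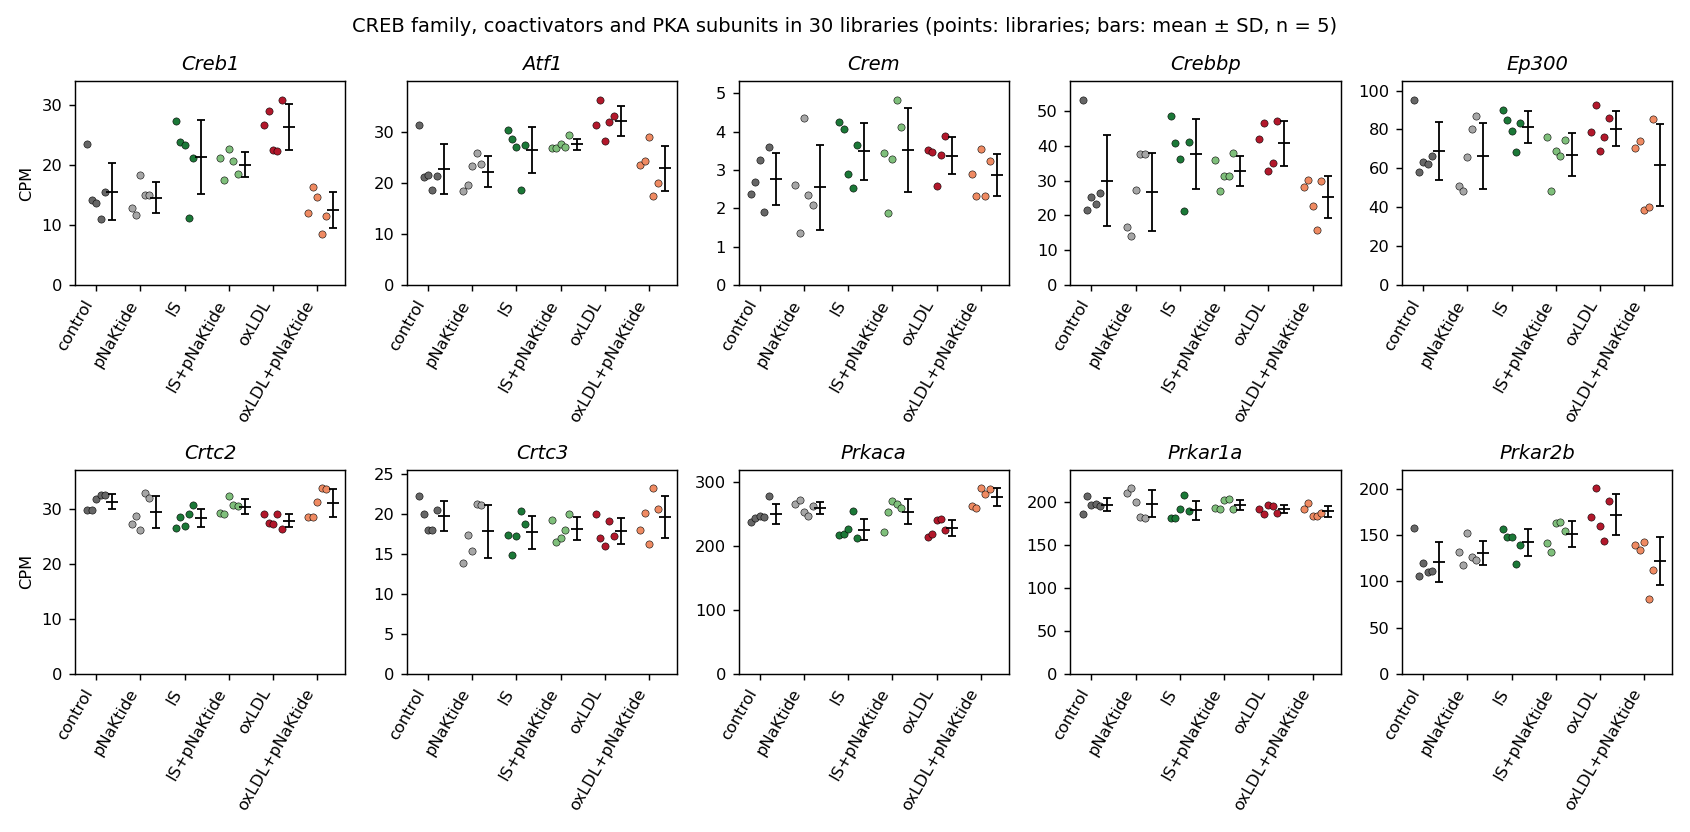
Level of each member in CPM (y axis, from 0) in the 5 libraries of each of the 6 groups (points, in order of replicate number), with mean ± SD beside them. Creb1, Atf1 and Prkar2b were highest on average in oxLDL (26.2, 32.2 and 172 CPM), while Prkar1a stayed between group means of 189 and 198 CPM.

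The first comparison asked how the cells responded to oxLDL. A gene was called when its Benjamini-Hochberg (BH)-adjusted p-value in edgeR's quasi-likelihood test was under 0.1. With oxLDL, 4 of the 10 members were called, 3 higher and 1 lower, where 36% of all genes tested were called. Among the 11567 genes with more than 14 counts in every library, fitted alone, 58% were called. Crem was not in that set. The members that rose were Creb1, Atf1 and Prkar2b, and Crtc2 fell. The median log2 fold change was 0.26 over the members and 0.04 over all genes tested. Creb1 stood at 23.5, 14.1, 13.7, 10.97 and 15.5 CPM in control replicates 1 to 5 and at 26.6, 28.9, 22.5, 22.2 and 30.8 CPM in the oxLDL libraries. Control replicate 1 was the only control within the oxLDL range. The log2 fold change of Creb1 was 0.75 (SE 0.19, adjusted p-value 0.00865), a 1.69-fold rise. Atf1, the close relative that pairs with CREB, had 31.3, 21.3, 21.5, 18.7 and 21.5 CPM in control and 31.4, 36.4, 28.2, 32.0 and 33.2 CPM in oxLDL. Here too only control replicate 1 reached into the oxLDL range, and the log2 fold change of Atf1 was 0.50 (SE 0.13, adjusted p-value 0.0103). Crem, whose short products act as repressors, averaged 2.76 ± 0.675 CPM in control and 3.37 ± 0.474 CPM in oxLDL, with a log2 fold change of 0.30 (95% interval -0.15 to 0.75) that was not called.

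The acetyltransferases had log2 fold changes of the same sign that did not pass. Crebbp had 53.3, 21.6, 25.3, 23.4 and 26.5 CPM in control and 41.9, 46.6, 32.9, 35.0 and 47.0 CPM in oxLDL. All oxLDL libraries lay above the other 4 controls, and control replicate 1 lay above them all. Its log2 fold change was 0.44 (SE 0.25, adjusted p-value 0.189) with all libraries and 0.75 (adjusted p-value 0.0111) without control replicate 1. Ep300 was at 69.1 ± 14.9 CPM in control and 80.4 ± 9.09 CPM in oxLDL (log2 fold change 0.22, 95% interval -0.14 to 0.58, adjusted p-value 0.395). Of the CRTC coactivators, Crtc2 had 29.9, 29.8, 31.8, 32.6 and 32.6 CPM in control and 29.0, 27.4, 27.3, 29.2 and 26.3 CPM in oxLDL. Crtc2 was the only member whose groups did not overlap, which held for 8.35% of all genes tested. Its fall was small, and with library size as the only scaling it was -0.04 and not called (log2 fold change -0.17, SE 0.08, adjusted p-value 0.095), and in 8 of 10 fits that each left out 1 library it was not called, with adjusted p-values of 0.105 to 0.198. Crtc3 stood at 19.7 ± 1.83 CPM in control and 17.9 ± 1.64 CPM in oxLDL (log2 fold change -0.14, adjusted p-value 0.37).

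Among PKA subunits, Prkar2b had 158.0, 105.9, 119.6, 109.7 and 111.0 CPM in control and 169.5, 200.8, 160.3, 143.5 and 186.5 CPM in oxLDL. Apart from control replicate 1, no control reached the lowest oxLDL library. The log2 fold change of Prkar2b was 0.51 (SE 0.13, adjusted p-value 0.0085), a 1.42-fold rise. The other regulatory subunit of high level, Prkar1a, was at 196 ± 7.56 CPM in control and 191 ± 4.88 CPM in oxLDL. Between them the log2 fold change was -0.04, with a 95% interval of -0.17 to 0.09. Prkaca averaged 250.3 ± 16.1 CPM in control and 228 ± 12.7 CPM in oxLDL (log2 fold change -0.13, 95% interval -0.28 to 0.01, adjusted p-value 0.18). Without control replicate 1 and IS replicate 4, 6 members were called with oxLDL, 4 higher and 2 lower, Crebbp and Prkaca being added, and 47.6% of all genes were called.

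The libraries also differed in how counts varied with gene length and GC content, and Creb1 has 13742 exonic bases at 39.6% GC. A smooth trend of each library's counts over gene length and GC content gave Creb1 a mean of -0.20 on the log2 scale in control, 0.48 in oxLDL and -0.43 in oxLDL + pNaKtide. When this trend was taken out, the log2 fold change of Creb1 with oxLDL was 0.09 (adjusted p-value 0.506) and no longer called. Atf1 (0.27, adjusted p-value 0.0651) and Prkar2b (0.21, adjusted p-value 0.0525) were still called higher, and Crtc2 was at -0.01. Of all genes 20.1% were called in this fit. Prkar1a was then called lower at -0.27 (adjusted p-value 0.0281), its trend having a mean of -0.07 in control and 0.16 in oxLDL. Its mean CPM in these groups, given above, differed by less than the SD of control. The trend was estimated from the same libraries, and technical and biological sources of it cannot be told apart.

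**Figure D2:**
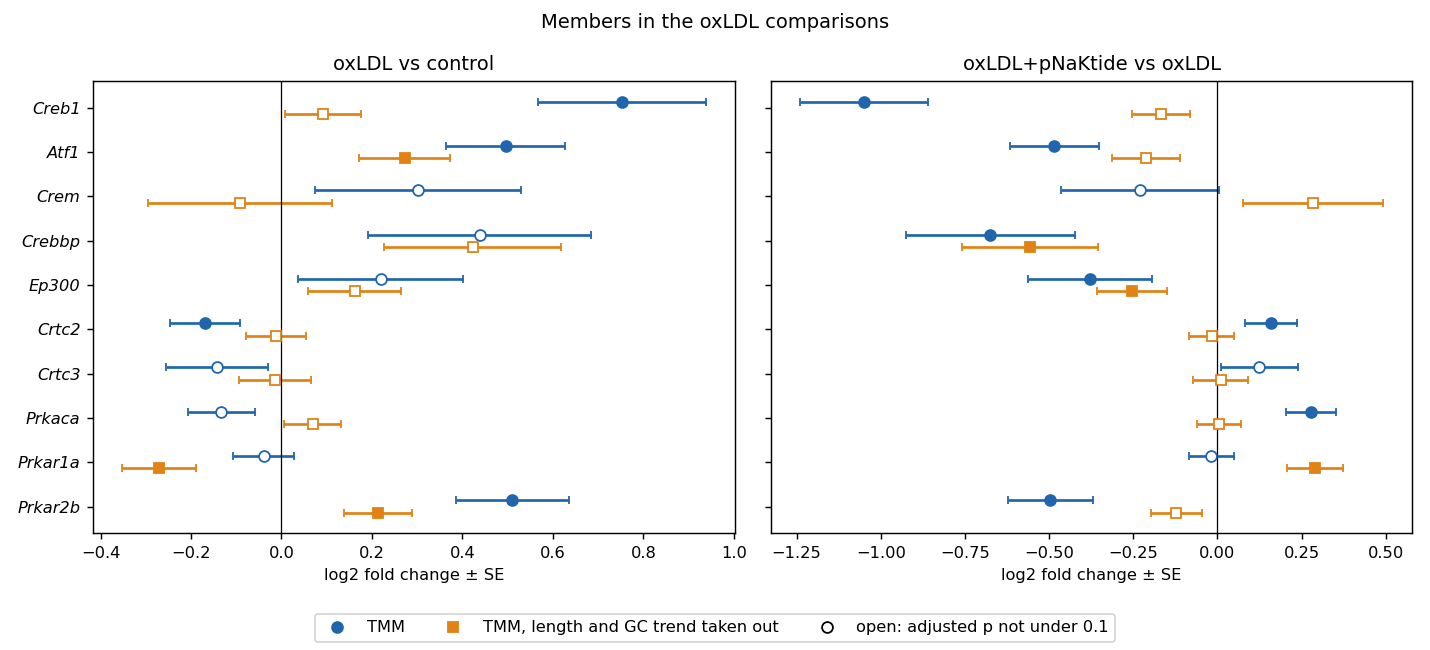
Log2 fold change (x axis) with SE for each member in oxLDL vs control (left) and oxLDL + pNaKtide vs oxLDL (right), with TMM scaling (circles) and with each library's length and GC trend taken out as well (squares). Filled symbols had an adjusted p-value under 0.1; Creb1 moved from 0.75 to 0.09 on the left and from -1.05 to -0.17 on the right.

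The next comparison asked what changed when pNaKtide was added to oxLDL. Of the 10 members 7 were called, 5 lower and 2 higher, where 48.3% of all genes tested were called. Among the genes with more than 14 counts in every library, fitted alone, the share was 71.8%. Without oxLDL + pNaKtide replicate 4, which stood apart, 4 members were called, Crebbp, Ep300 and Crtc2 being lost, beside 41.4% of all genes. With all libraries, Creb1, Atf1, Crebbp, Ep300 and Prkar2b fell, and Prkaca and Crtc2 rose. The median log2 fold change was -0.30 over the members and -0.09 over all genes tested. The oxLDL libraries entered this comparison and the one with control, so that opposite signs in the pair are not independent of each other. Groups did not overlap for 4 members (Creb1, Crebbp, Prkaca and Prkar2b), against 28.4% of all genes tested.

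Creb1 had 12.045, 16.3, 14.6, 8.44 and 11.5 CPM in the oxLDL + pNaKtide libraries, all below the lowest oxLDL library at 22.2 CPM. Its log2 fold change was -1.05 (SE 0.19, adjusted p-value 8.54e-05), the largest change of a member in any comparison of groups. Atf1 had 23.6, 24.4, 29.1, 17.5 and 20.04 CPM with both agents, where only replicate 3 reached the oxLDL range. On the log2 scale Atf1 changed by -0.48 (SE 0.13, adjusted p-value 0.00348). Crem was at 2.86 ± 0.547 CPM and was not called (log2 fold change -0.23, adjusted p-value 0.464).

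Crebbp had 28.1, 30.2, 22.8, 15.9 and 29.8 CPM in oxLDL + pNaKtide, each below the oxLDL libraries. Its log2 fold change of -0.67 (SE 0.25, adjusted p-value 0.0304) became -0.55 (adjusted p-value 0.11) without oxLDL + pNaKtide replicate 4, the lowest of them. Ep300 had 70.3, 74.1, 38.4, 40.4 and 85.6 CPM, a spread wider than in oxLDL (68.9 to 92.6 CPM). It passed narrowly (log2 fold change -0.38, SE 0.18, adjusted p-value 0.0992). Of 10 fits that each left out 1 library, 6 did not call Ep300: those without oxLDL replicates 1, 2, 4 or 5 or without oxLDL + pNaKtide replicates 3 or 4, with adjusted p-values of 0.105 to 0.3. Crtc2 had 28.6, 28.5, 31.3, 33.8 and 33.6 CPM, and replicates 1 and 2 lay inside the oxLDL range. Its log2 fold change was 0.16 (SE 0.08, adjusted p-value 0.0953), and it was not called in 6 of 10 fits without 1 library (adjusted p-values of 0.12 to 0.193). Crtc3 was not called (log2 fold change 0.12, adjusted p-value 0.416).

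The subunits of PKA moved in different directions. Prkaca had 263, 259, 290.3, 281 and 289.7 CPM with both agents and 214, 218, 241, 242 and 226 CPM with oxLDL. The groups were apart, and the log2 fold change of the catalytic subunit was 0.28 (SE 0.07, adjusted p-value 0.00286), a 1.21-fold rise. Prkar2b had 139.7, 134, 142, 80.8 and 112 CPM, all below the lowest oxLDL library at 143.5 CPM, though replicate 3 by a small margin. Its log2 fold change was -0.50 (SE 0.13, adjusted p-value 0.00185). Prkar1a was at 189 ± 6.53 CPM (log2 fold change -0.02, 95% interval -0.15 to 0.11).

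With the length and GC trend taken out, 3 members were called between oxLDL + pNaKtide and oxLDL, near the 36.4% of all genes called in that fit. Crebbp (-0.56, adjusted p-value 0.037) and Ep300 (-0.25, adjusted p-value 0.0636) were called lower, and Prkar1a turned from -0.02 to 0.29 (adjusted p-value 0.0065). Creb1 was then at -0.17 (adjusted p-value 0.153), Atf1 at -0.21 (0.117), Prkar2b at -0.12 (0.238), Prkaca at 0.00 (0.968) and Crtc2 at -0.02, and none of them was called. Crem, not called in any of these fits, changed sign in both comparisons (-0.09 with oxLDL and 0.28 with pNaKtide added). When libraries were scaled only by their size, the median of all genes tested was -0.30, and neither Prkaca (0.05) nor Crtc2 (-0.07) was called, while Prkar1a was called lower (-0.24, adjusted p-value 0.000722), opposite in sign to its value with the trend taken out. With that scaling Prkar1a was also called lower in both differences of changes that follow (-0.22 and -0.26).

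Whether pNaKtide changed a member differently with oxLDL than without was tested as a difference of changes. Against pNaKtide alone, 2 members were called, Creb1 (-0.96, SE 0.27, adjusted p-value 0.0285) and Prkar2b (-0.61, SE 0.18, adjusted p-value 0.0304), where 24.6% of all genes tested were called. Without control replicate 1, 6 members were called in this test (Creb1, Atf1, Crebbp and Prkar2b lower, Crtc2 and Prkaca higher), beside 37.3% of all genes. Leaving out oxLDL + pNaKtide replicate 2 gave 4 members, with Crtc2 and Prkaca added as higher, beside 26.9% of all genes. The share of all genes fell to 15.6% without control replicate 2, 14.1% without control replicate 4, 12.5% without oxLDL + pNaKtide replicate 4 and 10.5% without pNaKtide replicate 3, each with 2 members called. Against pNaKtide with IS, 3 members were called, Creb1 (-0.96, adjusted p-value 0.0154), Atf1 (-0.54, adjusted p-value 0.0363) and Prkar2b (-0.58, adjusted p-value 0.0224), against 29.3% of all genes tested. Without IS replicate 4 these 3 were still called, and the share of all genes fell to 18.8%. Atf1 was not called without oxLDL + pNaKtide replicate 4 (-0.45, adjusted p-value 0.101). With the length and GC trend taken out, edgeR called no member in either test, beside 11.9% and 17.3% of all genes.

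With IS, 0 of the 10 members were called in edgeR, where 7.94% of all genes tested were called. At an unadjusted p-value under 0.05, Creb1 alone passed, beside 5036 of the 20139 genes tested. DESeq2 called 2 members, Creb1 higher and Prkaca lower, beside 23.4% of the genes for which it gave an adjusted p-value. Creb1 had 27.2, 23.7, 23.2, 11.1 and 21.1 CPM in the IS libraries (log2 fold change 0.45, SE 0.18, adjusted p-value 0.134). IS replicate 4 lay at the lower end of the controls, and the other IS libraries lay above all controls but replicate 1. Without control replicate 1 the change of Creb1 was 0.66 (adjusted p-value 0.0118) and without IS replicate 4 it was 0.61 (adjusted p-value 0.00719). In each of these fits 4 members were called. Atf1 was called higher in both (0.36 and 0.31), as was Prkar2b (0.35 and 0.29), while Crebbp (0.64) was called without the control and Prkaca (-0.20) without the IS library. Of all genes, 33.2% and 34.5% were called in these fits. With both libraries left out, 6 members were called with IS (Creb1, Atf1, Crebbp, Ep300 and Prkar2b higher and Prkaca lower), beside 45.4% of all genes.

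In the other comparisons no member was called in edgeR. For pNaKtide against control this stood beside 0.00497% of all genes tested, with 0 members at an unadjusted p-value under 0.05 and 0 in DESeq2. Of all genes, 1233 of 20139 had an unadjusted p-value under 0.05, and DESeq2 called 0.937% of those it adjusted. The intervals were those of small changes for Prkaca (log2 fold change 0.06, SE 0.07) and Prkar1a (0.01, SE 0.07), and wide for Crebbp (-0.17, SE 0.25). For IS + pNaKtide against IS, 0% of all genes tested were called, and 564 of 20139 had an unadjusted p-value under 0.05. DESeq2 called 0.107% of the genes it adjusted. Prkaca was the single member at an unadjusted p-value under 0.05 there (0.17, SE 0.07, adjusted p-value 1), and DESeq2 called 0. For IS + pNaKtide against control the share of all genes was 0.358%. An unadjusted p-value under 0.05 was found for 2 members (Atf1 0.27 and Prkar2b 0.32), beside 4022 of 20139 genes. DESeq2 called 0 members, beside 12.4% of the genes it adjusted. Without control replicate 1 Creb1 (0.56), Atf1 (0.41) and Prkar2b (0.44) were called higher, beside 26.7% of all genes. For oxLDL + pNaKtide against control, with 5.2% of all genes called, 0 members had an unadjusted p-value under 0.05, beside 3468 of 20139 genes. DESeq2 called Prkaca higher (edgeR 0.14, SE 0.07, adjusted p-value 0.313), beside 14.3% of the genes it adjusted. IS against oxLDL had 0.0149% of all genes called. Atf1 (-0.28) and Prkar2b (-0.28) had an unadjusted p-value under 0.05, beside 1047 of 20139 genes. DESeq2 called 0 members, beside 0.333% of the genes it adjusted.

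The balance of the PKA subunits was followed per length with the subunits that were not among the 10 genes. Prkaca made up 94.9 ± 0.43% of catalytic subunit FPKM in control (n = 5), and Prkacb, the other catalytic gene, the rest. Prkar2b held 38.0 ± 4.19% of regulatory subunit FPKM in control, 46.8 ± 3.40% in oxLDL and 38.7 ± 4.90% in oxLDL + pNaKtide. Prkar1a held 52.6 ± 4.61%, 44.2 ± 3.61% and 51.5 ± 4.82% in these groups, so that the mean of RIα was ahead of that of RIIβ in control and both were within their spread in oxLDL. In control replicate 1 the order was the other way, with 45.1% for Prkar2b and 44.8% for Prkar1a, and the other 4 controls had 36.2 ± 1.49% and 54.6 ± 1.65%. In IS the shares were 42.7 ± 3.66% for Prkar2b and 48.2 ± 3.51% for Prkar1a, or 44.2 ± 1.39% and 46.8 ± 1.76% in the 4 libraries other than replicate 4. Group means of Prkar2a lay between 8.60% and 9.52%, and those of Prkar1b, a subunit known from neurons, were at most 0.474% (0.734% in a single library). The values without a library were added after the data were seen. No test was made on these shares.

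**Figure D3:**
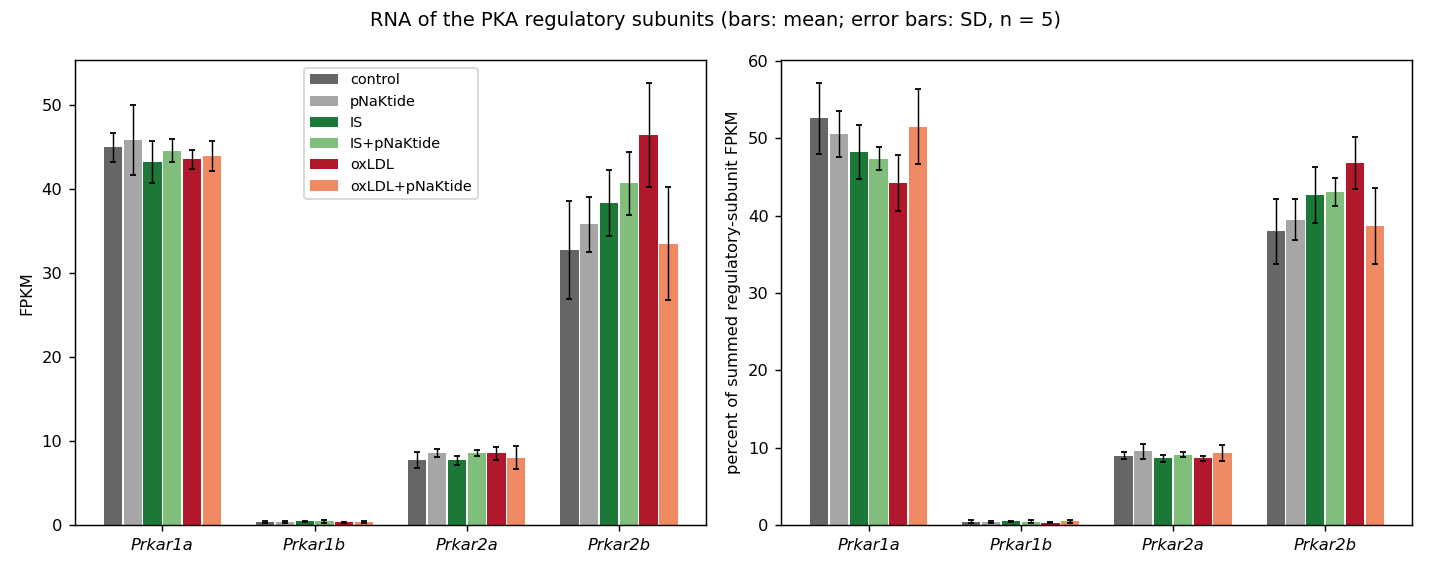
Mean ± SD (n = 5) of the 4 regulatory subunit genes in FPKM (left) and as percent of their summed FPKM (right) in each group. Prkar2b was at 32.7 FPKM in control and 46.4 FPKM in oxLDL, while Prkar1a lay between 43.2 and 45.8 FPKM in all groups.

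The pathway around the members was described with 10 lists of 140 genes, of which 126 were tested. With oxLDL 28 were higher and 20 lower (38.1% called, against 36% of all genes), and with pNaKtide added to oxLDL 26 were higher and 43 lower (54.8%, against 48.3%). These shares were near those of all genes, of which 18.1% were higher and 18% lower with oxLDL and 22.1% higher and 26.1% lower with pNaKtide added. The counts of each list that follow are to be read against these shares, and those with the length and GC trend taken out against 20.1% and 36.4%. The split depended on scaling: with library size alone, 41 were higher and 14 lower with oxLDL and 15 higher and 66 lower with pNaKtide added, and with the length and GC trend taken out these were 10 and 9 (15.1%) and 23 and 25 (38.1%). Without control replicate 1 and IS replicate 4, a count chosen after the data were seen, 53.2% of the 126 genes were called with oxLDL and 48.4% with IS, against 47.6% and 45.4% of all genes. Of 3 other PKA subunits none was called with oxLDL, and Prkacb (-0.46, adjusted p-value 0.000124) fell when pNaKtide was added, while Prkar2a (-0.12, adjusted p-value 0.347) and Prkar1b (0.34, adjusted p-value 0.34) were not called. The PKA inhibitor gene Pkig fell with oxLDL (-0.42, adjusted p-value 0.0286) and rose when pNaKtide was added (0.80, adjusted p-value 7.53e-05). Pkia went the other way at 0.41 (adjusted p-value 0.219) with oxLDL, which was not called, and fell with pNaKtide added (-1.11, adjusted p-value 0.00169). Pkib had too few counts to test.

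Of 16 A-kinase anchoring protein genes tested, which tie PKA to its places in the cell, 7 rose with oxLDL and 0 fell, with Akap10 first (0.39, adjusted p-value 0.02). With pNaKtide added 0 rose and 8 fell, Akap10 again first (-0.55, adjusted p-value 0.000728). With the length and GC trend taken out, 1 was called higher with oxLDL, and 1 higher and 5 lower with pNaKtide added. Of 13 cAMP phosphodiesterase genes 3 rose and 1 fell with oxLDL, among them Pde3b (0.53, adjusted p-value 0.016), the insulin-activated phosphodiesterase of adipocytes, and Pde1b (-0.50, adjusted p-value 0.0131). With pNaKtide added 1 rose (Pde1b, 0.52, adjusted p-value 0.00369) and 5 fell (Pde4b first, -0.49, adjusted p-value 0.00681). Without the trend 2 were then higher and 0 lower. Of 18 genes of receptors, G proteins and adenylyl cyclases, Gnai3 rose (0.57, adjusted p-value 0.00809) and 2 fell with oxLDL, Gnai2 first (-0.48, adjusted p-value 0.00955). With pNaKtide added, 2 rose, Gnas first, which encodes the stimulatory α subunit (0.49, adjusted p-value 0.000963), and 2 fell, Gnai3 first (-0.65, adjusted p-value 0.000314).

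Among 15 relatives of CREB and ATF, 4 rose with oxLDL, Crebl2 first (0.72, adjusted p-value 0.0106), and 2 fell, Atf5 first (-0.49, adjusted p-value 0.0139). With pNaKtide added 4 rose and 6 fell, led by Atf5 (0.79, adjusted p-value 7.11e-05) and Crebl2 (-0.96, adjusted p-value 0.000253). Of 16 other coactivator genes and their regulators, 5 rose and 5 fell with oxLDL, led by the calcineurin subunit Ppp3ca (0.49, adjusted p-value 0.00783) and the acetyltransferase Kat2a (-0.26, adjusted p-value 0.0434). With pNaKtide added 6 rose, Kat2a first (0.36, adjusted p-value 0.00339), and 6 fell, with Sik1 first (-0.38, adjusted p-value 0.00127), a kinase that holds CRTC proteins in the cytoplasm. Of 17 other CREB kinases and phosphatases, 4 rose and 6 fell with oxLDL, led by the phosphatase gene Ppp1cb (0.95, adjusted p-value 0.00972) and by Rps6ka4 (-0.66, adjusted p-value 0.0073), which encodes a CREB kinase. With pNaKtide added 6 rose and 8 fell, led by Rps6ka1 (0.60, adjusted p-value 0.000133) and Ppp1cb (-1.25, adjusted p-value 0.000231).

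Of 20 genes with CREB sites known from textbooks, 4 rose with oxLDL, Ppargc1a first (0.71, adjusted p-value 0.0124), and 1 fell, Egr1 (-0.29, adjusted p-value 0.0127). With pNaKtide added, Pck1 led 2 that rose (0.32, adjusted p-value 0.0065) and Bdnf led 6 that fell (-0.98, adjusted p-value 1.31e-05). Of 6 lipolytic substrates and partners of PKA, 0 rose and 2 fell with oxLDL, and 4 rose and 0 fell with pNaKtide added. Pnpla2, the first triglyceride lipase of lipolysis, led them in both comparisons (-0.43, adjusted p-value 0.0131, and 0.77, adjusted p-value 2.33e-05). Adipocyte markers, a list that shares Fabp4, Lipe, Plin1 and Pnpla2 with the former, were called as follows: 1 was higher and 5 lower of 13 with oxLDL, and 7 higher and 1 lower with pNaKtide added. Of 10 preadipocyte and fibroblast markers 0 were higher and 4 lower with oxLDL, and 4 higher and 1 lower with pNaKtide added, the others not being called. Their part in the result was not tested. With IS, 9 of the 126 genes were higher and 7 lower (12.7%, against 7.94% of all genes). Of the lipolytic list 0 were higher and 2 of 6 lower with IS, of the adipocyte markers 1 was higher and 5 of 13 lower, and of the preadipocyte and fibroblast markers 0 were higher and 3 of 10 lower.

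**Figure D4:**
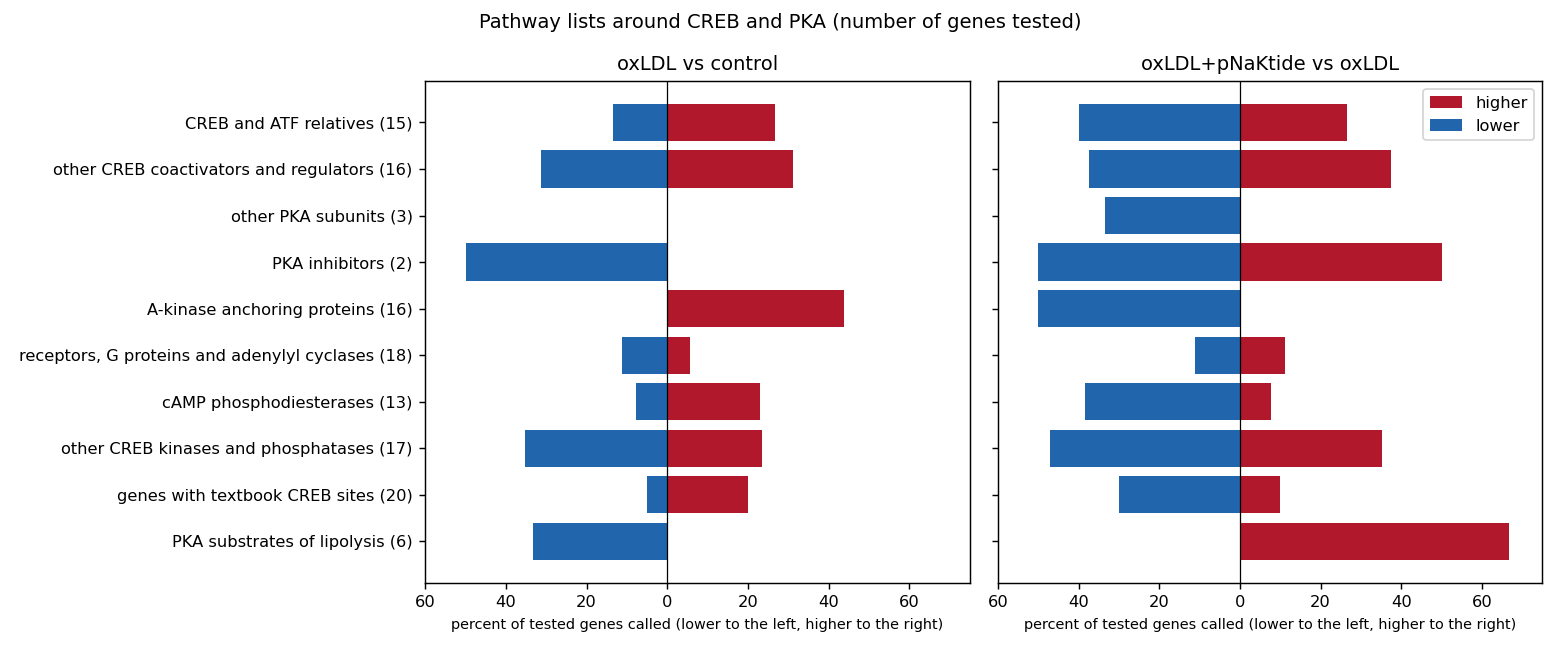
Percent of the tested genes of each of the 10 pathway lists that were called higher (right of 0) or lower (left of 0), in oxLDL vs control and in oxLDL + pNaKtide vs oxLDL; the number tested stands behind each name. A-kinase anchoring proteins had 7 of 16 genes higher on the left panel and 8 of 16 lower on the right.

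The likeness of the members to Creb1 over the 30 libraries was graded. Log2 CPM of Creb1 had a Pearson r of 0.91 with Atf1, 0.88 with Prkar2b and 0.83 with Crebbp, which was 0.87, 0.81 and 0.77 after group means were taken out. With Creb1, r was 0.62 for Ep300, 0.55 for Crem, -0.27 for Crtc3, -0.29 for Prkar1a and -0.54 for Crtc2. Crebbp and Ep300 had an r of 0.86 (0.84 within groups). Prkaca ran against Creb1, with an r of -0.72, and -0.49 within groups. Over the 28 libraries without control replicate 1 and IS replicate 4, the r within groups was 0.74 for Creb1 with Atf1, 0.78 with Prkar2b, 0.62 with Crebbp and -0.22 with Prkaca. These are descriptions of 30 libraries that share scaling and the length and GC trend, and 916 of 13621 genes compared had an r over 0.9 with Creb1. The genes most like Creb1 were Myef2, Sbno1 and Top2b (r of 0.97 each). Those most like Prkar2b were Naa50 (0.96), Tmed5 (0.96) and Rps6kb1 (0.95), and 189 genes had an r over 0.9 with it. For Prkaca they were Qsox1 (0.90), Lipe (0.89), which encodes the hormone-sensitive lipase that PKA phosphorylates, and Crat (0.89).

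Promoters are shown for Creb1 and Prkar2b, each called higher with oxLDL and lower with pNaKtide added (as Atf1 was, not shown), and for Prkar1a, which was called in neither with TMM scaling, since CREB itself binds a defined element. RefSeq windows of 300 bases (GRCm38.p6, 250 before to 50 after the start) were searched for the CRE TGACGTCA and its shorter form TGACG on both strands, the latter being part of the former. The CRE was in 1.79% of 32851 promoters and the shorter form in 20.8%. Capitals mark the matches, which are descriptions of the letters and not sites of binding.
Creb1, chr1:64532554-64532853, plus strand: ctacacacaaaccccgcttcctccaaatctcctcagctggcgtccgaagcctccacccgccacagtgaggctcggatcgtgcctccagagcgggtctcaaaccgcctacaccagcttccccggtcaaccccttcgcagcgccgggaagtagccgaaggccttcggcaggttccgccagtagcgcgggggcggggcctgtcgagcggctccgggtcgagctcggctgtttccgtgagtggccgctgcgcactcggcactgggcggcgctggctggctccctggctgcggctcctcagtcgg
Prkar2b, chr12:32061228-32061527, minus strand: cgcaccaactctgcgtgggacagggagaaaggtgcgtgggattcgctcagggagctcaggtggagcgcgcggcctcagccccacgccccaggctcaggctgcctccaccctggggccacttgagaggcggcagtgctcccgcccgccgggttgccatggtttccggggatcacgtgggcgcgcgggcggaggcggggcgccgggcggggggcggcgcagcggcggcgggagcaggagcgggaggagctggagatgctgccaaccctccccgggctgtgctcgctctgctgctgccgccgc
Prkar1a, chr11:109650699-109650998, plus strand: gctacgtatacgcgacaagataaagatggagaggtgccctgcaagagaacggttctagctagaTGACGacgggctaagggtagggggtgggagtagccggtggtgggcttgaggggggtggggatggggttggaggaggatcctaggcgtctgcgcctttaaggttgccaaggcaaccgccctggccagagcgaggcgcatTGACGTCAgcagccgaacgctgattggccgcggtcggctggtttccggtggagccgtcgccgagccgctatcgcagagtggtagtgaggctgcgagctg
The Creb1 window and both Prkar2b windows held neither form. Of 6 Prkar1a windows 3 held the shorter form, and 2 of these, which overlap, held the same CRE. Atf1 had 1 window with the shorter form, Prkaca 1 of 2, and the windows of Crebbp, Ep300 and Crtc3 held none. Crem and Crtc2 were not searched.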

How the data were processed

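Total RNA of 30 libraries was sequenced as stranded mRNA. Per the labels and the study's methods, the authors trimmed reads with Trimmomatic 0.38, aligned them to GRCm38 with HISAT2 2.1.0 and made counts per gene with GenomicAlignments. For the annotation release and the strand setting: not given in the sources used here. Deposited FPKM values are counts divided by the authors' size factors and by 1 length per gene. The authors' table of normalized values was not used here.

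The 20139 genes whose counts summed to more than 14 were fitted for 6 groups in edgeR 4.0.16 (R 4.3.3, TMM, robust quasi-likelihood test, two-sided), with BH adjustment over all genes tested and a threshold of 0.1; SE is the log2 fold change over the square root of F. CPM are TMM-scaled. For correlations, log2 CPM had a prior count of 2. The 95% intervals are the log2 fold change ± 1.96 SE. Being on a normal quantile, they are slightly too narrow for the quasi-likelihood test. The common biological coefficient of variation was 14.0%. No pair of libraries within a group was the same within counting noise (lowest chi-square per degree of freedom 1.28 over 60 pairs), so none was merged as 1 library deposited again. This does not show separate cultures: repeat libraries of a culture could differ as much, and the labels do not say, so each library was counted as the labels list it. Alternatives were RLE, library size alone, DESeq2 1.42.0, filters on counts, a threshold of 0.05, a replicate block, fits of compared groups alone, an offset for each library's trend over length and GC content (mgcv), limma-trend on log2(FPKM + 1), and leaving out libraries. Steps were tested on simulated data.

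The members, lists and libraries to leave out were chosen with earlier results of these data known. Named genes are the 10 members, of each list the gene with the smallest adjusted p-value in each direction among those called in a comparison, all genes of lists of 3 or fewer, and the 3 genes most correlated with Creb1, Prkaca and Prkar2b. Also named were markers with 0 counts, the markers Lep, Cd14, Cd68, Lyz2 and Pecam1 for their counts, and genes shared by the lipolytic and adipocyte lists. Lists were written from general knowledge. Exon lengths, GC content and codons were taken from GENCODE M21 and promoters from RefSeq.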

Additional observations from a re-analysis of the deposited data

Results flagged for a closer look

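In 60 groups of 5 libraries, 6 had a library far from the other 4, where chance flags about 1 in 20 groups. Of these, 4 were control replicate 1: Atf1 at 31.3 CPM (next 21.5), Crebbp at 53.3 CPM (next 26.5), Ep300 at 95.3 CPM (next 66.3) and Prkar2b at 158.0 CPM (next 119.6). The others were Atf1 in IS replicate 4, lowest at 18.7 CPM (next 27.0), and Prkaca in control replicate 5, highest at 278 CPM (next 247).

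The change with pNaKtide differed between settings for 3 members. Against pNaKtide alone, the change with oxLDL was lower by a log2 difference of -0.96 for Creb1 and -0.61 for Prkar2b. Against pNaKtide with IS it was lower by -0.96 for Creb1, -0.54 for Atf1 and -0.58 for Prkar2b. None of these differences was called with the length and GC trend taken out.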

How the results depend on the processing

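The counts of members called for oxLDL vs control (4) and for pNaKtide vs control, IS + pNaKtide vs IS and IS vs oxLDL (0 each) stayed within 1.5 times under every alternative run. For oxLDL vs control the genes behind the count changed. With the length and GC trend taken out, Atf1, Prkar1a and Prkar2b were the 3 called, and Crtc2 was called in 7 of 12 alternatives. For the change of pNaKtide with oxLDL against pNaKtide alone (2 called, beside 24.6% of all genes), library size alone and the replicate block gave 4. The shares of all genes in these 2 fits were 26.2% and 29.8%. DESeq2 (41.1% of genes), limma-trend (43.1%), more than 14 counts in every library (46.4%) and filterByExpr (38.7%) gave 5. Leaving out control replicate 1 and IS replicate 4 gave 6, beside 40% of all genes. For IS vs control (0 called), DESeq2 gave 2, the replicate block 1 and leaving out both libraries 6, beside 23.4%, 17% and 45.4% of genes. For IS + pNaKtide vs control (0 called) the block gave 1 and leaving out both libraries 3, beside 6.64% and 32.4% of all genes. For oxLDL + pNaKtide vs control (0 called) DESeq2 gave 1, beside 14.3% of genes. The length and GC trend taken out lowered the count for oxLDL + pNaKtide vs oxLDL from 7 to 3 and both differences between changes to 0. Leaving out each library in turn gave 3 to 5 members for oxLDL vs control, 4 to 7 for oxLDL + pNaKtide vs oxLDL (4 without oxLDL + pNaKtide replicate 4), 0 to 4 for IS vs control, 0 to 3 for IS + pNaKtide vs control, 2 to 6 and 2 to 3 for the differences against pNaKtide alone and with IS, and 0 elsewhere. Crtc2 in oxLDL + pNaKtide vs oxLDL reversed to -0.066 with library size alone and to -0.017 with the trend taken out, and Prkar1a there reversed to 0.29. The cause was not tested. Whether library numbers pair the groups was not settled. Of 75 same-numbered pairs 34 had a correlation over 0.1 (lowest -0.60, median 0.08, highest 0.74), and different-numbered pairs had a median of -0.02. On average, 10 of 30 libraries were closest to their own number. The replicate block raised the genes called for IS vs control from 1599 to 3423. Over all genes, the calls with oxLDL were 3637 higher and 3622 lower, but 4963 and 2276 with library size alone and 1367 and 2683 with the trend taken out, and those with pNaKtide added were 4458 and 5264, but 2696 and 7680 with library size alone. For IS vs control the 1599 genes called ranged from 0 with only the compared groups to 9140 without both libraries. Crem had the fewest counts of the members, 11 to 68 per library.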
